A study of Oryza sativa with 6 samples.

Results

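The genes described here act in the DNA damage response or in repair by homologous recombination. They belong to a set of 7 loci of the 39217 gene models counted in young rice grains, chosen by locus identifier, and their gene names come from the rule that chose them. Described are 5 of them: BRCA1 (LOC_Os05g43610), PARP1 (LOC_Os07g23110), PARP2 (LOC_Os01g24940), ATR (LOC_Os06g50910) and WEE1 (LOC_Os02g04010). By their identifiers they lie on chromosomes 5, 7, 1, 6 and 2. The RefSeq gene table (assembly ASM3414082v1) has an entry for 3 of these 5 symbols, PARP1, PARP2 and WEE1, each on the chromosome that the identifier names. It shares no identifier with the count table, so the pairing of names with loci is an assignment.

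RNA came from field-grown grains of ZH11, a japonica rice cultivar used as the wild type, and of the drw1 mutant, both taken 3 days after pollination. Each genotype had 3 libraries, 6 in all, with 15582373 to 24147797 counts each. The columns of the mutant carry the prefix C4 in the deposited table and were read as drw1, which is the only other genotype, so every direction given for drw1 rests on that reading. The name of the deposited table holds ctf4 beside zh11, but no label says what C4 stands for or what lesion drw1 carries. The labels also do not say whether the libraries came from separate plants or how many grains each held. A p-value here sets the difference between genotypes against the spread between libraries of a genotype, estimated with help from all genes tested. That spread may be technical only. No source used here pairs the mutated gene with a locus, and its expression is not analysed here.

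Plant cells answer broken DNA and stalled replication forks with kinases of the ATM and ATR type, which halt division and switch on repair genes. ATR responds to single-stranded DNA at stalled forks, and in Arabidopsis it acts through WEE1, a kinase that inhibits cyclin-dependent kinases. BRCA1 assists repair of broken DNA by homologous recombination, and the PARP enzymes add poly(ADP-ribose) to proteins at DNA breaks. The young endosperm passes through rapid nuclear division and then cell formation, and in maize endosperm WEE1 has been studied together with the later rounds of DNA replication without division.

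WEE1 fell in drw1, 2.07-fold, and none of the 5 genes rose (edgeR; also 0 at an unadjusted p under 0.05, with DESeq2 and with limma-voom). BRCA1, PARP1, PARP2 and ATR did not pass the test. All 5 were tested. Across all 23395 genes tested, 70.1% passed the same test (quasi-likelihood F test of edgeR, threshold 0.05 after Benjamini-Hochberg adjustment): 34.4% of the genes tested were lower in drw1 and 35.7% were higher. The median log2 fold change was -0.15 for the 5 genes and 0.03 for all genes tested.

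**Figure D1:**
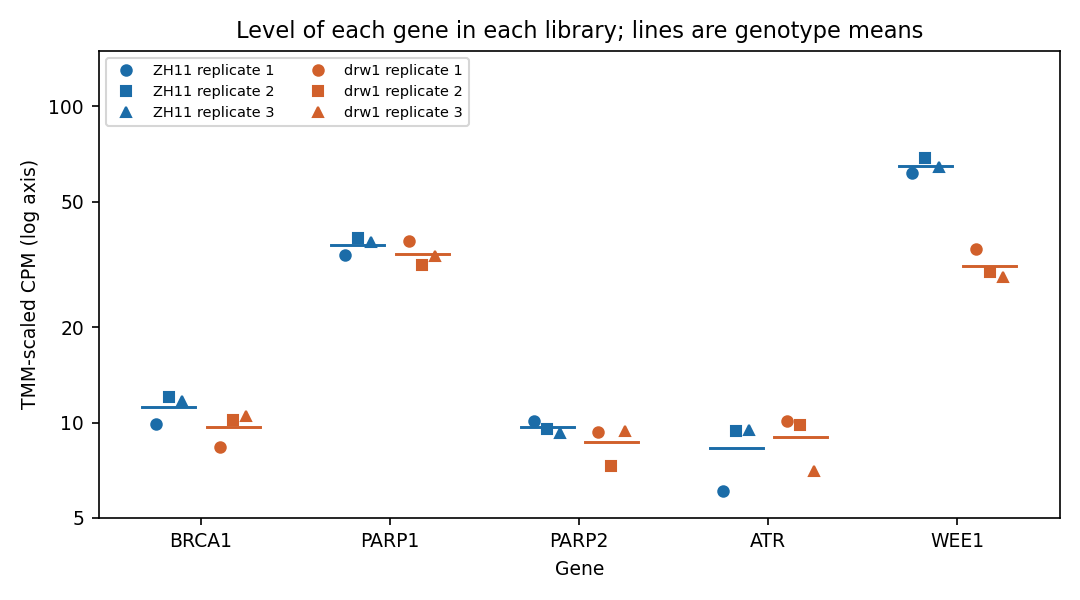
Level of each of the 5 genes in CPM (counts scaled by library size and TMM factor, log axis) in each library, with ZH11 in blue, drw1 in orange and a line at the mean of 3 libraries. WEE1 has all drw1 libraries below all ZH11 libraries, while the genotypes overlap in BRCA1, PARP1, PARP2 and ATR.

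WEE1, the inhibitory kinase of the cell cycle, had the highest level per length of the 5 in both genotypes. It had 1135, 1567 and 961 counts in ZH11 and 616, 520 and 523 in drw1. Scaled to a common library size by TMM factors, these are 61.6, 68.6 and 64.5 CPM in ZH11 and 35.3, 30.0 and 28.9 CPM in drw1. All drw1 libraries lay well below all ZH11 libraries. The mean went from 64.9 ± 3.51 CPM to 31.4 ± 3.43 CPM (SD, n = 3). The log2 fold change of WEE1 was -1.05 (SE 0.08, adjusted p = 6.77e-09 by the quasi-likelihood F test of edgeR), with a 95% interval of -1.23 to -0.87. Of all genes tested, 13.9% had a lower log2 fold change.

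BRCA1, a ubiquitin ligase that assists recombination repair, had 183, 276 and 175 counts in ZH11 and 146, 177 and 190 in drw1. This corresponds to 9.92, 12.1 and 11.7 CPM in ZH11 and 8.37, 10.2 and 10.5 CPM in drw1. ZH11 replicate 1 lay within the drw1 range, so the groups overlapped. BRCA1 had a log2 fold change of -0.22, which did not pass (SE 0.13, adjusted p = 0.147 by the quasi-likelihood F test of edgeR), with a 95% interval of -0.49 to 0.06. Without ZH11 replicate 1 it was -0.30 and just passed (adjusted p = 0.0485 by the quasi-likelihood F test of edgeR), which makes 2 lower genes of the 5 in place of 1.

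PARP1 and PARP2 are the break-sensing poly(ADP-ribose) polymerases. PARP1 had 33.9, 38.3 and 37.2 CPM in ZH11 and 37.7, 31.5 and 33.6 CPM in drw1, from 546 to 876 counts per library. The ranges of the genotypes overlapped over most of their length. Its log2 fold change was -0.09, which did not pass (SE 0.09, adjusted p = 0.359 by the quasi-likelihood F test of edgeR), with a 95% interval of -0.28 to 0.09. With the highest counts of the 4 genes that did not pass, PARP1 had the narrowest interval of them. PARP2 had 10.1, 9.58 and 9.26 CPM in ZH11 and 9.34, 7.32 and 9.40 CPM in drw1. Only drw1 replicate 2 lay apart from the others, on the low side. PARP2 had a log2 fold change of -0.15, which did not pass (SE 0.13, adjusted p = 0.309 by the quasi-likelihood F test of edgeR), with a 95% interval of -0.43 to 0.13. With library totals alone as scaling, the value was 0.064 for PARP1 and 0.0029 for PARP2, so the sign of neither held. That scaling also moved the median of all genes tested, from 0.03 to 0.19, and both genes stayed below it.

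ATR, the sensor kinase for stalled forks, had 112, 215 and 141 counts in ZH11 and 176, 171 and 127 in drw1. In CPM these were 6.07, 9.41 and 9.46 in ZH11 and 10.1, 9.85 and 7.02 in drw1. Each genotype had 1 low library, ZH11 replicate 1 and drw1 replicate 3, and the groups overlapped. For ATR the log2 fold change was 0.11, which did not pass (SE 0.18, adjusted p = 0.588 by the quasi-likelihood F test of edgeR), and its 95% interval of -0.26 to 0.48 was the widest of the 4 genes that did not pass. Without ZH11 replicate 1 the value was -0.077, so the sign rests on that library.

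The genotypes did not overlap in 1 of the 5 genes, WEE1. Among all genes tested, this held for 72.6%.

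**Figure D2:**
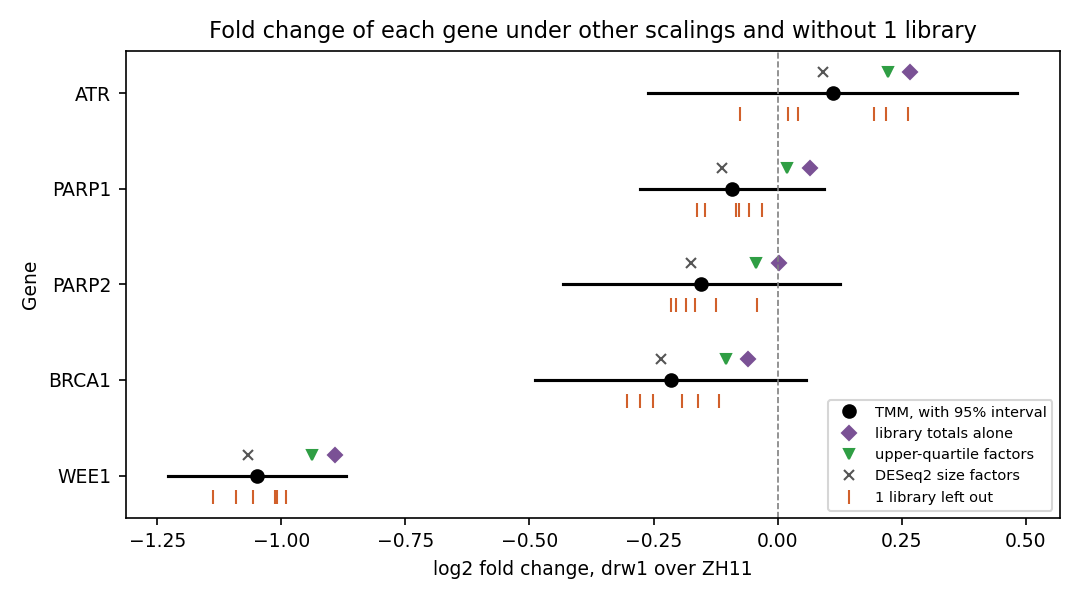
Log2 fold change of each of the 5 genes, drw1 over ZH11, as a black point with its 95% interval, with the values under 3 other scalings above it and the 6 values without 1 library below it. WEE1 (-1.05) stays below 0 in each of these, while the intervals of BRCA1, PARP1, PARP2 and ATR cross 0.

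**Figure D3:**
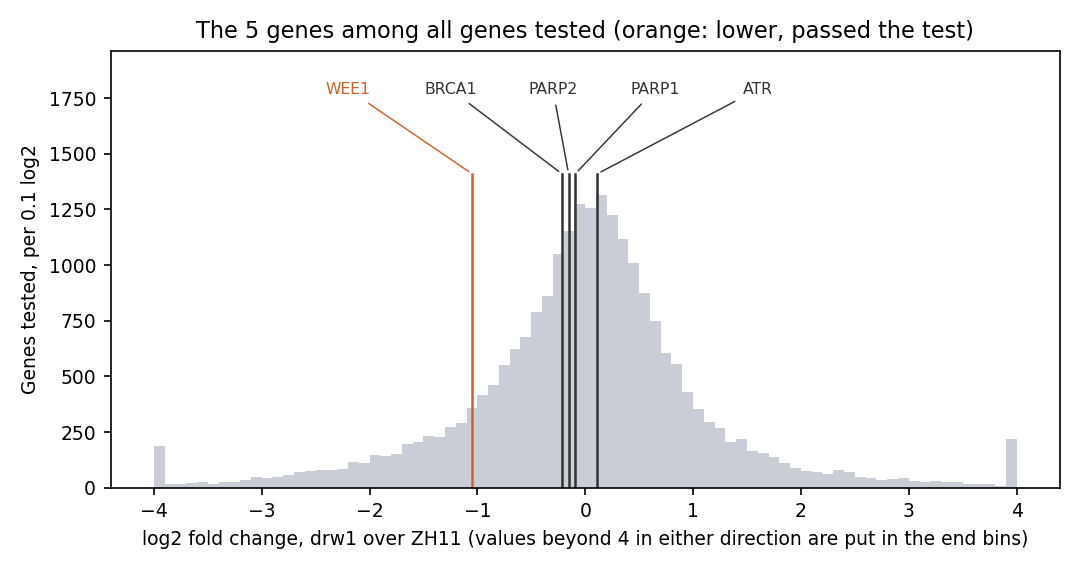
Number of genes tested by log2 fold change, drw1 over ZH11, in bins of 0.1, with a line at each of the 5 genes. WEE1 (orange) lies on the lower side, with 13.9% of all genes tested below it, and the other 4 (black) lie near the middle.

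Per length, the 5 genes stood in the same order in both genotypes. Levels were divided by the deposited model length, which ranges from 2020 bases for WEE1 to 8499 for ATR, and are given as CPM per kilobase (mean ± SD, n = 3). In ZH11, WEE1 had 32.1 ± 1.74, PARP1 12.4 ± 0.772, PARP2 4.67 ± 0.216, BRCA1 3.56 ± 0.366 and ATR 0.978 ± 0.228. In drw1, WEE1 had 15.5 ± 1.70, PARP1 11.7 ± 1.07, PARP2 4.20 ± 0.573, BRCA1 3.07 ± 0.366 and ATR 1.06 ± 0.201. Neighbours in this order did not overlap between their libraries in either genotype, though PARP2 and BRCA1 came close in drw1, at 3.54 against 3.32 in their nearest libraries. The distance between WEE1 and PARP1, the leading genes, was much smaller in drw1 than in ZH11. The median level over all genes tested was 9.86 CPM per kilobase in ZH11, so WEE1 and PARP1 lay above it and the other 3 below.

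Loci assigned to grain tissues differed between the genotypes at the same time. These marker lists were also written from memory, and RefSeq has an entry for 5 of the 10 endosperm symbols, each on the chromosome of the locus. The summed level of the 9 loci in the table assigned to endosperm, from storage proteins, starch synthesis and their activator, was 1542 to 1573 CPM in ZH11 and 102 to 115.5 CPM in drw1, and all 9 fell. Of the 9 loci, 1 had a library without a count and none was at 0 in all 6. The 4 loci assigned to the green pericarp fell as well, from 868 to 991 CPM down to 507 to 535 CPM in sum. RefSeq has an entry for only 2 of these 4 symbols, 1 on the chromosome of the locus and 1 on another. Of all genes tested, 34.4% were lower in drw1. The single embryo locus had 7.98 to 8.62 CPM in ZH11 and 5.80 to 8.94 CPM in drw1 and did not pass. In whole grains, fewer cells of a type and less RNA per cell cannot be told apart. The part of these tissue differences in the fall of WEE1 was not tested.

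Other loci assigned to repair were called about as often as all genes, in both directions. Of 35 listed in 6 groups, 29 were in the table and tested, of which 9 rose, 11 fell and 9 did not pass, with a median log2 fold change of 0.03, as for all genes. The share called was 69.0%, against 70.1% over all genes tested (34.4% lower and 35.7% higher). These lists were written from memory as pairs of symbol and locus, so single loci are not named. Of the 47 symbols in these and the cell division lists, 28 had a RefSeq entry and 27 were on the chromosome of the locus.

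Among 5 loci for checkpoint and damage signalling, 3 fell, 1 rose and 1 did not pass, where 34.4% of all genes tested were lower and 35.7% higher. The largest fall there was -1.41 on the log2 scale (SE 0.10), and 1 locus gained 0.61 (SE 0.17, adjusted p = 0.00522 by the quasi-likelihood F test of edgeR). Of 8 loci for break processing and strand exchange, 4 rose, 2 fell and 2 did not pass, with a median of 0.51. That is 75.0% called, near the 70.1% over all genes tested. Their largest rise was 1.03 on the log2 scale (SE 0.13), and their largest fall was -0.68 (SE 0.11).

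Replication protein A, which covers single-stranded DNA in replication and repair, had 2 loci higher, 2 lower and 2 not past the test of 6, from -0.63 to 0.50 on the log2 scale. Its summed level was 115 to 117 CPM in ZH11 and 119 to 125 CPM in drw1. Of the 2 loci for end joining and ligation, 1 fell and 1 did not pass. Of 4 loci for mismatch repair, 2 fell and 1 rose, and of 4 for meiotic recombination, 1 fell and 1 rose, the rest not passing. In the order given, the shares called in these 4 lists were 66.7%, 50%, 75% and 50%, against 70.1% over all genes tested.

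**Figure D4:**
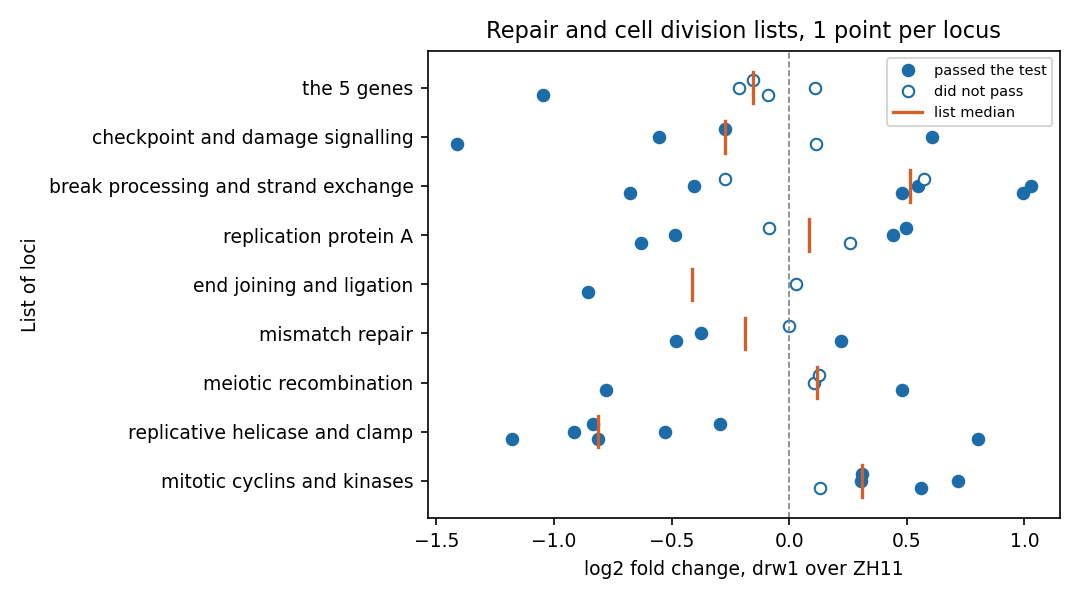
Log2 fold change, drw1 over ZH11, of each tested locus among the 5 genes and in 8 lists of repair and cell division loci, filled where it passed the test, with the list median as an orange line. The helicase and clamp list lies mostly below 0, with a median of -0.81, and the mitotic list above it, with a median of 0.31.

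Genes of DNA replication and of mitosis are used in dividing cells, as several repair genes are. Over all genes tested, 34.4% were lower and 35.7% higher, and no test compared the helicase and mitotic lists. All 6 loci assigned to the MCM2 to MCM7 helicase, which unwinds DNA at the fork, fell, and their summed level went from 143 ± 2.29 to 86.3 ± 4.17 CPM (SD, n = 3). The single clamp locus, assigned to PCNA, rose by 0.80 on the log2 scale (SE 0.08). Of 5 mitotic cyclin and kinase loci, 4 rose and 1 did not pass, and their summed level went from 208.5 ± 7.22 to 283 ± 9.36 CPM. Whether the helicase and mitotic levels had a part in the fall of WEE1 was not tested.

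A ratio to the summed helicase counts of the same library needs no scaling between libraries. Each difference is in effect the fold change of the gene less that of the helicase loci, which fell, and is no separate evidence on the gene. The log2 ratio of WEE1 to the helicase sum was -1.14 ± 0.0653 in ZH11 and -1.46 ± 0.0858 in drw1 (SD, n = 3). The genotypes did not overlap in this ratio. The ratios of BRCA1, PARP1, PARP2 and ATR were higher in drw1 by 0.52, 0.64, 0.57 and 0.85 on the log2 scale. The genotypes did not overlap in these ratios either, while they did overlap in the CPM of the same genes. The share of all genes tested without overlap in such a ratio was not computed. For each of these 5 ratios the two-sided exact permutation test gave p = 0.10 (adjusted p = 0.10 over the 5), the smallest that 3 against 3 libraries allow, so none could pass a threshold of 0.05. The ratios were added after the values had been seen.

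The profile of WEE1, the only called gene of the 5, was shared by other genes. Of 22051 other genes with a mean of at least 1 CPM, 395 had a Pearson correlation above 0.99 with it in log2 CPM over the 6 libraries, a description of libraries that share their genotype. The closest were LOC_Os03g14690, at 0.9997, and LOC_Os02g44090, at 0.9992. LOC_Os03g14690 had 31.7, 35.4 and 33.3 CPM in ZH11 and 18.6, 15.9 and 15.7 CPM in drw1, a change close in size to that of WEE1. LOC_Os02g44090 had 81, 129 and 72 counts in ZH11 and 29, 19 and 19 in drw1, a larger relative change, from few counts.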

How the data were processed

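The authors deposited raw whole-number read counts per gene model, per the file headers and the values. The submitters' processing notes name fastp, HISAT2, featureCounts and DESeq without versions. Build, annotation, strand setting and the handling of multiply matching reads were not given in the sources used here. The deposited table also gives a length in bases per model, used for levels per kilobase.

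The test was edgeR 4.0.16 (quasi-likelihood, R 4.3.3) on all 6 libraries, with TMM scaling, the default low-count filter, no factor but genotype, and Benjamini-Hochberg adjustment over 23395 genes at a threshold of 0.05. It was run on simulated data first, where it missed many of the smallest changes and its share of false calls was somewhat above the threshold. Log2 fold changes are drw1 over ZH11, with approximate standard errors from the test statistic. Ratios and correlations used a pseudocount of 0.5. The totals of 15582373 to 24147797 counts put a floor of 3 counts at 0.131 to 0.201 CPM. Libraries of 1 genotype differed by more than sampling noise. Alternatives used DESeq2 1.42.0 and limma 3.58.1.

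The set of 7 genes and the lists were chosen with earlier results of these data known. The genes named are 5 of the set, and, as most like the one of these 5 with the largest called fall, the identifiers with the highest correlation among genes of at least 1 CPM. The other 2 are not reported here. None of the 5 rose, so none was taken for a rise. The rule also allowed up to 2 names per list. Apart from the assigned symbols PCNA and MCM2 to MCM7, none was used, because no source here annotates those loci.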

Additional observations from a re-analysis of the deposited data

How the results depend on the processing

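The call for WEE1 held under all 14 other settings: 3 scalings, 2 filters, DESeq2, limma-voom, the replicate block and leaving out each library. Its log2 fold change ran from -1.14 to -0.89. Library totals alone moved the median of all genes to 0.19 and upper-quartile factors to 0.14. With them PARP1 was 0.064 and 0.018, and with library totals alone PARP2 was 0.0029, all against negative main values that had not passed. Without 1 library, ATR ran from -0.077 (without ZH11 replicate 1) to 0.26 and BRCA1 from -0.30 to -0.12, and BRCA1 passed only without ZH11 replicate 1, so that 1 to 2 of the 5 genes were lower. Without division by length, the rank in ZH11 was 3 for BRCA1 and 4 for PARP2, the reverse of their order per length. The replicate block changed no call among the 5 genes (WEE1 -1.05) and called 7884 genes higher and 7621 lower. Deviations from the genotype mean correlated at -0.17, 0.034 and -0.14 between libraries of one number, and the best match was the own number for 1 library of 6, so the numbers were not taken as pairs. Over the other lists, 13 to 17 loci were higher and 13 to 17 lower. Leaving out each library for the helicase ratios was chosen after seeing the data. The difference between genotypes then ran from -0.37 to -0.28 for WEE1 and from 0.66 to 1.00 for ATR. Leaving out 1 library cannot move a genotype mean by more than the SD between replicates, so staying within that spread shows nothing. BRCA1, PARP2 and ATR rest on 112 to 276 counts per library. Their SEs on the log2 scale were 0.13, 0.13 and 0.18, against 0.09 for PARP1 and 0.08 for WEE1. The part of low counts and of spread between libraries in these SEs was not tested.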
